A study of Arabidopsis thaliana with 6 samples.

Results

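Class II trehalose-6-phosphate synthase (TPS) genes and trehalose-6-phosphate phosphatase (TPP) genes of Arabidopsis thaliana were described across 6 RNA-seq libraries of dark-grown seedlings. The set held 10 genes, TPS5, TPS6, TPS7, TPS8, TPS9, TPS10, TPS11, TPPA, TPPF and TPPG, of the 26185 genes with at least 1 read. They were chosen by locus with their read counts scaled to library size (CPM) in the 3 groups known, so the levels and fold changes below describe these libraries and carry no p-value. All 7 class II TPS genes of the family are in the set, but only 3 of its 10 TPP genes.

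The libraries came from whole etiolated seedlings of the Col-0 ecotype, aged 3 days and pooled, in 3 groups of 2 biological repeats. Seeds lay for 3 days at 4 °C, got a few hours of light, and then stayed for 3 days in the dark at 22 °C. Col_MS was wild type on MS, a mineral culture medium. Col_Kyn was wild type on MS with kynurenine in the medium, at a dose labelled 25 mM, whose unit could not be checked. Kynurenine is known to inhibit TAA1 and its relatives, aminotransferases that convert tryptophan on the main route to the auxin indole-3-acetic acid (IAA). The group wei8tar2_MS was a mutant line on MS with the genotype wei8-/- tar2+/-, where WEI8 is TAA1 and TAR2 is a relative of it. Which of the segregating tar2 seedlings went into its pool is not given in the sources used here. The series title gives seedlings deficient in IAA biosynthesis as the subject. No label says whether repeats were grown on separate days, so the spread below is that between these libraries.

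Trehalose-6-phosphate (Tre6P) is made from UDP-glucose and glucose-6-phosphate by TPS and is dephosphorylated to trehalose by TPP, and trehalase splits trehalose into glucose. In plants Tre6P is known as a signal of sucrose supply, which inhibits the kinase SnRK1, a regulator that switches cells to a starvation programme. TPS1 is the catalytically active synthase of Arabidopsis seedlings. Class II TPS proteins carry both a synthase-like and a phosphatase-like domain, and for most of them no synthase activity has been shown. Transcripts of TPS8 to TPS11 are known to be repressed by sugar and those of TPS5 to be induced by it.

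Library totals ran from 18143395 reads in Col_Kyn replicate 2 to 31817638 in Col_Kyn replicate 1, and all 10 genes passed the filter on low counts that left 21326 genes. TAA1 stood at 37.8 and 38.7 CPM for Col_MS, against 38.4 and 41.5 for Col_Kyn and 7.89 and 8.36 for wei8tar2_MS, so the mutant libraries were the low ones. TAR2 stood at 10.08 and 8.11 CPM for Col_MS, then 7.08 and 6.29 for Col_Kyn, and 2.90 and 2.01 for wei8tar2_MS. PORA, the protochlorophyllide reductase of etiolated tissue, had 1097 to 1408 CPM in the 6 libraries. Of 21326 genes, 1090 differed more than 2-fold between the Col_MS libraries, 986 between the Col_Kyn libraries and 255 between the wei8tar2_MS libraries. All fold changes are edgeR estimates on the log2 scale, given with their standard error (SE) and 2 libraries a group. In whole seedlings, fewer cells of a type and less RNA per cell cannot be told apart.

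Class II TPS messages were abundant beside those of the rest of the family. Per kilobase of exon, a scale meant for comparing different genes, TPS7 stood first in Col_MS at 46.8 ± 4.04 CPM per kb (SD, n = 2). The gene lengths listed with the counts differ from these exon lengths. They are 3477 against 2973 bases for TPS9, 3941 against 4361 for TPS10 and 2981 against 1763 for TPPG. Orders, ranks and overlaps on this scale therefore rest on the exon lengths and can shift with the listed ones. TPS9 followed at 44.8 ± 2.38 and TPS10 at 36.3 ± 1.49 CPM per kb. TPS8 was at 18.7, TPS11 at 13.7, TPS6 at 12.6 and TPS5 at 12.2 CPM per kb in the same group, while TPS1 was at 2.43. In Col_MS the libraries of TPS7 and TPS9 overlapped on this scale, as did those of TPS11 and TPS6 and those of TPS6 and TPS5. All other neighbours in the order of the 10 genes were separated there. Among the phosphatases, TPPG had 8.79, TPPA 5.78 and TPPF 1.48 CPM per kb in Col_MS.

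In Col_Kyn the order began again with TPS7 at 56.7 and TPS9 at 53.1 CPM per kb, 2 genes whose libraries overlapped. In wei8tar2_MS TPS9, at 57.5, stood before TPS7, at 54.1 CPM per kb, and their libraries overlapped here too. TPPG, at 15.1 CPM per kb, overlapped TPS6, at 16.2, in Col_Kyn and had passed TPS5, which was at 9.86. TPPF and TPPA, at 4.54 and 3.81 in Col_Kyn and at 3.47 and 3.16 in wei8tar2_MS, overlapped in both groups. TPPF held rank 16 in Col_MS, 9 in Col_Kyn and 11 in wei8tar2_MS among the 22 loci of the TPS, TPP and trehalase families, and TPPA held ranks 9, 10 and 12.

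**Figure D1:**
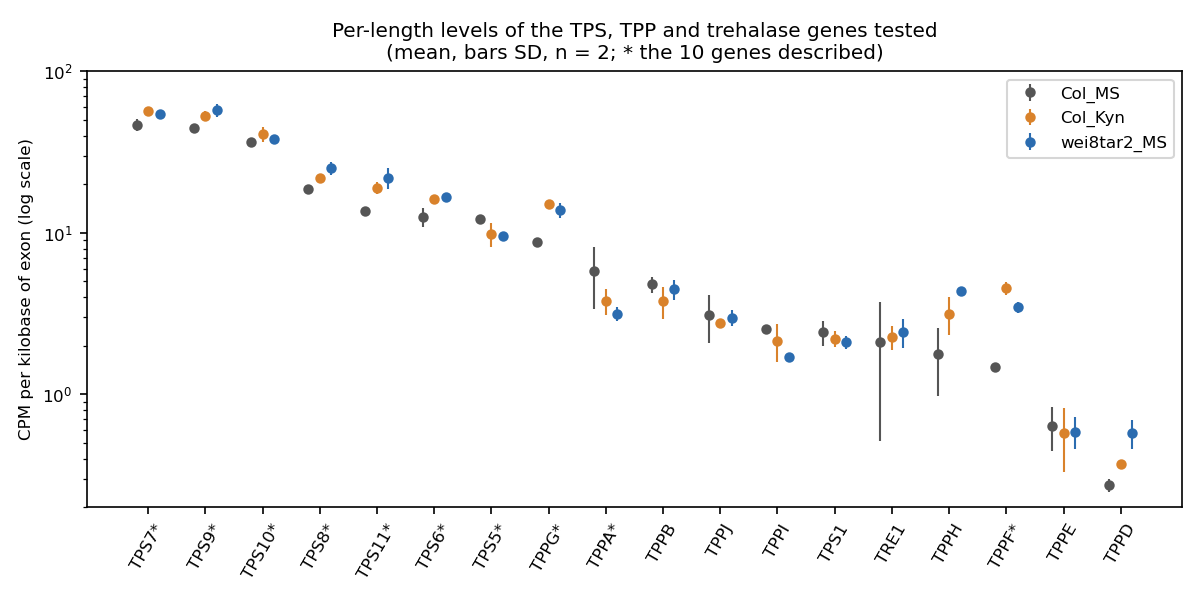
Levels of the TPS, TPP and trehalase genes that passed the filter, as CPM per kilobase of exon on a log axis. Points are means of the 2 libraries of a group, bars are SDs, and asterisks mark the 10 genes described; the 7 class II TPS genes lie above TPS1 in every group.

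The promoter of TPS11 is shown because it belongs to the class II gene with the widest differences. It is the 300 bases before the annotated gene start in the RefSeq sequence of TAIR10.1, at chr2:8108598-8108897 (plus strand). Capitals mark the 1 match found among the 5 motifs searched on both strands, TATCCA, a box known from sugar-responsive genes.
TPS11: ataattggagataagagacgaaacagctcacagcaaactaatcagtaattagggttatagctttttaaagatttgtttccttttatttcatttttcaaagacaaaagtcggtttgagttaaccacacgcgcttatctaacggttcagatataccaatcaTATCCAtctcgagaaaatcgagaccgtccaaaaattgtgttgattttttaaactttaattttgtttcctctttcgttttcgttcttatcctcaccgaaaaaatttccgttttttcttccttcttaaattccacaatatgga

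Each motif was counted in the same window of 27431 genes on both strands, and 9 of the 10 genes were read. ACGT, the core of many bZIP binding sites, was found in 6 of the 9, TPS8, TPS9, TPS10, TPPA, TPPF and TPPG, and in 48.9% of all promoters. CACGTG, the G-box that contains this core, was in none of the 9 and in 7.09% of all. ACTCAT, a bZIP element known from proline-responsive genes, was found in TPS5 and TPPF and in 14.8% of all promoters, and TATCCA in TPS10 and TPS11 and in 16.2% of all. AAAATATCT, the evening element of clock-regulated genes, was in none of the 9 and in 2.79% of all promoters. These are counts of letters in a window and say nothing of binding.

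TPS11 was the class II gene with the greatest difference between groups. TPS11 (AT2G18700, chromosome 2, 8108898 to 8112010, plus strand, TAIR10.1) stood at 38.7 and 42.1 CPM for Col_MS, against 52.5 and 59.5 for Col_Kyn and 71.1 and 57.8 for wei8tar2_MS. Both Col_MS libraries were lower than the other 4, and the Col_Kyn and wei8tar2_MS libraries overlapped. The log2 fold change was 0.47 ± 0.13 (SE) in Col_Kyn and 0.67 ± 0.13 in wei8tar2_MS, ratios of 1.39 and 1.59.

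TPS8 and TPS9 encode the most similar pair of class II proteins. TPS8 (AT1G70290, chromosome 1, 26470795 to 26474833, minus strand) stood at 60.04 and 65.3 CPM for Col_MS, then 74.3 and 72.7 for Col_Kyn, and 89.6 and 78.9 for wei8tar2_MS. Its 3 groups did not overlap, with Col_MS lowest and wei8tar2_MS highest. For TPS9 (AT1G23870, chromosome 1, 8432179 to 8435656, plus strand), 128 and 138 CPM in Col_MS stood against 151 and 165 in Col_Kyn and 182 and 160 in wei8tar2_MS. Col_MS was again the low group, and the other groups overlapped. The fold changes on the log2 scale were 0.23 ± 0.11 and 0.43 ± 0.11 for TPS8, and 0.24 ± 0.12 and 0.36 ± 0.12 for TPS9, in Col_Kyn and wei8tar2_MS.

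TPS6, whose mutants are known for altered shapes of epidermal cells and trichomes, stood at 40.5 and 49.1 CPM for Col_MS, against 56.3 and 59.4 for Col_Kyn and 59.7 and 58.5 for wei8tar2_MS (AT1G68020, chromosome 1, 25496928 to 25500584, plus strand). The Col_MS libraries were the lowest pair, and those of the other groups overlapped within a narrow range. Its fold changes were 0.37 ± 0.12 and 0.40 ± 0.12 (log2), and 0.24 and 0.27 without Col_MS replicate 1. TPS7 (AT1G06410, chromosome 1, 1954674 to 1958866, plus strand) stood at 162 and 183 CPM for Col_MS, then 216 and 202 for Col_Kyn, and 200.1 and 199 for wei8tar2_MS. Its Col_MS libraries were lowest and its Col_Kyn libraries highest, with log2 fold changes of 0.28 ± 0.11 in Col_Kyn and 0.21 ± 0.11 in wei8tar2_MS. The value in wei8tar2_MS was 0.12 without Col_MS replicate 1 and 0.33 without Col_MS replicate 2.

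TPS10 differed least between the groups, and TPS5 was lower where the other class II genes were higher. TPS10 (AT1G60140, chromosome 1, 22176934 to 22181740, minus strand) stood at 163 and 154 CPM for Col_MS, against 193 and 166 for Col_Kyn and 166 and 164 for wei8tar2_MS. The highest Col_MS library and the lowest wei8tar2_MS library were nearly equal, and the log2 fold changes were 0.18 ± 0.12 in Col_Kyn and 0.06 ± 0.12 in wei8tar2_MS. With 1 library left out, they ran from 0.06 (without Col_Kyn replicate 1) to 0.28 (without Col_Kyn replicate 2) and from 0.05 (without Col_MS replicate 2) to 0.10 (without Col_MS replicate 1). TPS5 (AT4G17770, chromosome 4, 9876172 to 9880386, plus strand), which is known for a role in heat tolerance, stood at 40.2 and 42.6 CPM for Col_MS, then 37.6 and 29.5 for Col_Kyn, and 31.6 and 33.2 for wei8tar2_MS. It was the one class II gene highest in Col_MS, with Col_Kyn replicate 1 and replicate 2 apart by 0.35 on the log2 scale. The fold changes were -0.30 ± 0.13 and -0.35 ± 0.13 (log2), and that in Col_Kyn was -0.49 without Col_Kyn replicate 1 and -0.14 without Col_Kyn replicate 2.

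Summed over the 7 class II genes, the level was 633 and 674 CPM for Col_MS, against 780.0 and 754 for Col_Kyn and 800.4 and 751 for wei8tar2_MS. The sum was lowest in Col_MS, and the other groups overlapped.

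**Figure D2:**
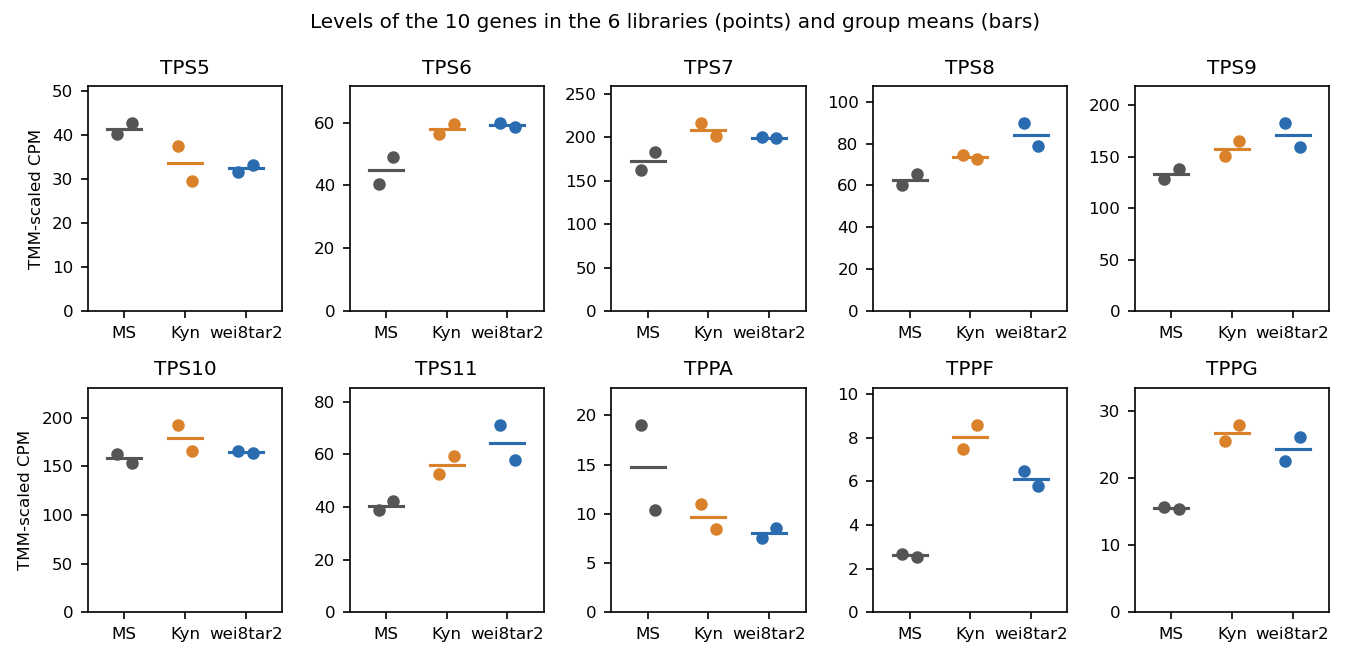
CPM of each gene, scaled by TMM factors, in the 6 libraries (points) with group means (bars) for Col_MS, Col_Kyn and wei8tar2_MS; every axis starts at 0. TPPF is at 2.69 and 2.53 CPM in Col_MS and at 5.80 or more in the other libraries, whereas TPS5 is highest in both Col_MS libraries and TPPA in Col_MS replicate 1.

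The TPPF and TPPG promoters are shown because these genes encode similar proteins and share runs of sequence before the gene start. The windows are the 300 bases at chr4:7368731-7369030 (minus strand) and chr4:11896481-11896780 (minus strand) of TAIR10.1, read from RefSeq. Capitals mark runs of at least 12 bases common to both.
TPPF: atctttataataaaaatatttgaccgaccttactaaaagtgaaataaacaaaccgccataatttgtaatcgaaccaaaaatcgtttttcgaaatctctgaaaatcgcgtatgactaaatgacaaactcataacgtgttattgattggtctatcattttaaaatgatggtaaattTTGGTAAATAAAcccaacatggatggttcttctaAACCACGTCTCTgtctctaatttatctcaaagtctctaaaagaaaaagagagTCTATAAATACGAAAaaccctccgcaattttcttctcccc
TPPG: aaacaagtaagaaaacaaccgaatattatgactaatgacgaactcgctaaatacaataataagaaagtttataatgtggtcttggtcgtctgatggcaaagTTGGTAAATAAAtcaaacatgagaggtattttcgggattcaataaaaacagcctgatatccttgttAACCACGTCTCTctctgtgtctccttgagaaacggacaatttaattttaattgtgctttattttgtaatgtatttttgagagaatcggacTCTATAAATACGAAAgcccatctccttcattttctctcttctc
The longest common run, TCTATAAATACGAAA, has 15 bases and starts at -40 in TPPF and -43 in TPPG. It includes a TATA-like stretch and is in the windows of these 2 genes alone among 27431. AACCACGTCTCT, of 12 bases, starts at -92 and -133 and is likewise in 2 windows of all. TTGGTAAATAAA, also of 12 bases, starts at -126 and -199 and is in 13 windows. Among the other 35 pairs of the 9 genes read the longest common run had 8 to 12 bases, with a median of 10.

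TPPF was the gene of the set with the largest ratio between groups. TPPF (AT4G12430, chromosome 4, 7365257 to 7368730, minus strand), a phosphatase linked to drought tolerance in Arabidopsis, stood at 2.69 and 2.53 CPM for Col_MS, then 7.47 and 8.58 for Col_Kyn, and 6.46 and 5.80 for wei8tar2_MS. These levels rest on 74 and 72 reads for Col_MS, against 233 and 150 for Col_Kyn and 176 and 147 for wei8tar2_MS. The 3 groups did not overlap, with Col_MS lowest and Col_Kyn highest. The ratio to Col_MS was 3.07 in Col_Kyn and 2.35 in wei8tar2_MS, log2 fold changes of 1.61 ± 0.18 and 1.23 ± 0.18.

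TPPG (AT4G22590, chromosome 4, 11893499 to 11896480, minus strand), which is known for a part in abscisic acid control of stomata, stood at 15.6 and 15.4 CPM for Col_MS, then 25.5 and 27.9 for Col_Kyn, and 22.5 and 26.1 for wei8tar2_MS. The Col_MS libraries were the lowest and nearly equal, and the other groups overlapped. Its log2 fold changes were 0.78 ± 0.12 in Col_Kyn and 0.65 ± 0.12 in wei8tar2_MS, ratios of 1.72 and 1.57.

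TPPA (AT5G51460, chromosome 5, 20900859 to 20904647, plus strand), one of the first plant TPP genes found and known for a role in root hairs, stood at 19.0 and 10.4 CPM for Col_MS, against 10.96 and 8.47 for Col_Kyn and 7.53 and 8.60 for wei8tar2_MS. Col_MS replicate 1 stood alone at the top, while Col_MS replicate 2 lay within the range of Col_Kyn. The log2 fold changes were -0.59 ± 0.28 and -0.87 ± 0.28, with the largest SE of the 10 genes. Without Col_MS replicate 1 they were -0.09 and -0.37, and without Col_MS replicate 2 they were -0.94 and -1.21. Of the root hair markers COBL9, RHD6, EXPA7, RSL4 and LRX1, 5 of 5 had reads, and their summed level was 53.8 and 78.3 CPM in Col_MS against 44.4 and 36.0 in Col_Kyn and 44.7 and 46.0 in wei8tar2_MS. Of the root meristem and cap markers PLT1, PLT2, SMB and WOX5, 4 of 4 had reads, with sums of 4.99 and 3.55 CPM for Col_MS, then 1.31 and 1.26 for Col_Kyn, and 2.31 and 2.96 for wei8tar2_MS. None of these 9 markers was at 0 in any library. Both sums were highest in Col_MS, although WOX5 alone was highest in wei8tar2_MS, at 1.43 and 2.41 CPM, and the root hair sum was lower in Col_MS replicate 1, where TPPA was high, than in replicate 2. The seed reserve markers CRA1, CRC, OLEO1 and OLEO2 had reads in every library, 4 of 4, and summed to 73.9 and 16.8 CPM in Col_MS against 29.7 and 2.12 in Col_Kyn and 39.9 and 23.5 in wei8tar2_MS. That sum was highest in Col_MS replicate 1, as TPPA was, and higher in replicate 1 of every group. Of the light-grown leaf markers LHCB1.1, LHCB1.4, LHCB2.1 and RBCS1A, 4 of 4 had reads and none was at 0, with sums of 3898 and 4218 CPM in Col_MS against 3107 and 5116 in Col_Kyn and 4065 and 4080 in wei8tar2_MS. LHCB1.4 among them was at 2.44 and 3.79 CPM in Col_MS against 1.51 and 18.5 in Col_Kyn and 14.6 and 15.1 in wei8tar2_MS. The part of these markers in the TPPA values was not tested.

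The 3 phosphatases together held 37.3 and 28.3 CPM for Col_MS, against 43.9 and 44.9 for Col_Kyn and 36.5 and 40.5 for wei8tar2_MS. This sum overlapped between Col_MS and wei8tar2_MS.

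TPPF and TPPG share 83.2% of aligned residues, and each shares every count with another listed locus. In all 6 libraries TPPF had the same reads as AT4G12432 and TPPG the same reads as AT4G22592, so their reads cannot be assigned between the loci of a pair. Neither of those loci is in the RefSeq annotation used here. Identical rows of at least 100 reads were found for 125 genes in all. RefSeq annotates an upstream open reading frame of 75 bases before the main coding sequence of both TPPF and TPPG. In TPPF it spans bases 1215 to 1289 from the gene start, counted along the genome, and the main coding sequence begins at 1385. In TPPG it spans 972 to 1046, and the main coding sequence begins at 1110. Such an annotation exists for 83 loci, 0.301% of 27550 protein-coding loci, and for these 2 of the 10 genes. Pooled over all annotated transcripts, TPPF has 12 distinct exon intervals and TPPG 9.

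**Figure D3:**
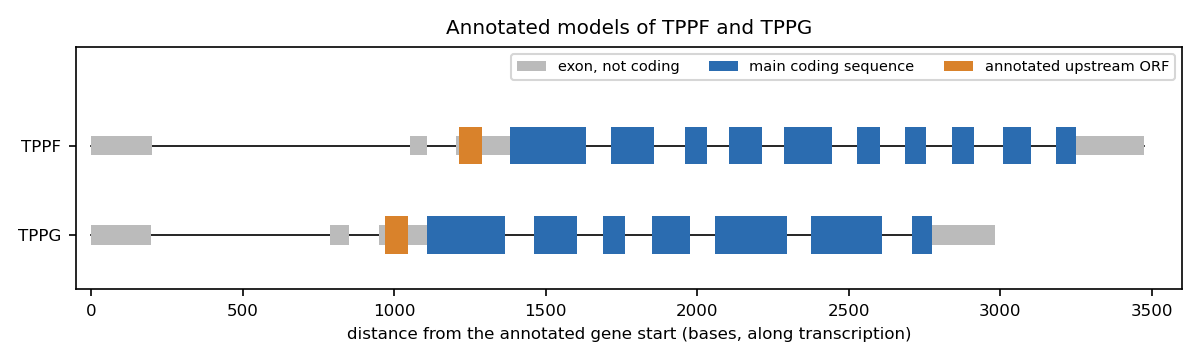
RefSeq models of TPPF and TPPG drawn to scale, in bases from the annotated gene start in the direction of transcription. Grey boxes are exons outside the coding sequence, blue boxes the main coding sequence and orange boxes the annotated upstream open reading frame of 75 bases, which lies in the exon that also holds the start of the main coding sequence in both genes.

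In the comparison of Col_Kyn with Col_MS, which asks how the messages stand when the aminotransferases are inhibited by a compound, 8 of the 10 genes were higher and 2, TPS5 and TPPA, were lower. In 8 genes both Col_Kyn libraries lay above both Col_MS libraries, as did 20.2% of all genes tested, and in 1, TPS5, both lay below, as did 23.4%. The median log2 fold change of the 10 genes was 0.26, with a range of -0.59 to 1.61, beside a median of -0.02 over all genes. The edgeR quasi-likelihood test called 1 of the 10, TPPF, at an adjusted p under 0.05, beside 0.366% of all genes. DESeq2 called 2, TPPF and TPPG, beside 3.4% of all genes, and 5 had an unadjusted p under 0.05, beside 17%. Since these values chose the genes, nothing is read from the counts. The edgeR call on TPPF ended when Col_MS replicate 1, either Col_Kyn library or either wei8tar2_MS library was left out, with the log2 fold change between 1.51 and 1.72.

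In the comparison of wei8tar2_MS with Col_MS, which asks the same of a genetic lesion, again 8 of the 10 genes were higher, and TPS5 and TPPA were lower. Both wei8tar2_MS libraries lay above both Col_MS libraries in 8 genes, beside 26.6% of all genes, and below them in 2, beside 29%. The median log2 fold change was 0.38, with a range of -0.87 to 1.23, beside -0.02 over all genes. Of the 10 genes edgeR called 1, TPPF, beside 1.08% of all genes. DESeq2 called 4, TPPF, TPPG, TPS11 and TPS8, beside 5.93%, and 8 had an unadjusted p under 0.05, beside 20.6%. These values chose the genes as well, so nothing is read from these counts either. The edgeR call on TPPF ended without Col_MS replicate 1 and without either wei8tar2_MS library, with the log2 fold change between 1.15 and 1.31. The comparisons with Col_MS share its libraries, so a resemblance between them is partly built in, and their values stand here side by side only.

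Compared directly, wei8tar2_MS and Col_Kyn differed little in the 10 genes. The log2 fold changes ran from -0.38 for TPPF to 0.20 for TPS11, with a median of -0.06 beside -0.01 over all genes. In TPS8 both wei8tar2_MS libraries were above both Col_Kyn libraries, beside 16.8% of all genes, with a log2 fold change of 0.20 ± 0.11. In TPS7 and TPPF both were below, beside 18.8%, with log2 fold changes of -0.07 ± 0.11 and -0.38 ± 0.17. With 1 library left out, TPS8 ran from 0.10 to 0.29, TPS7 from -0.10 to -0.02, TPPF from -0.48 to -0.27 and TPS11 from 0.05 to 0.35. The edgeR test called 0 of the 10, beside 0.0281% of all genes. DESeq2 also called 0, beside 0.233%, and 0 had an unadjusted p under 0.05 by edgeR, beside 4.32%.

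**Figure D4:**
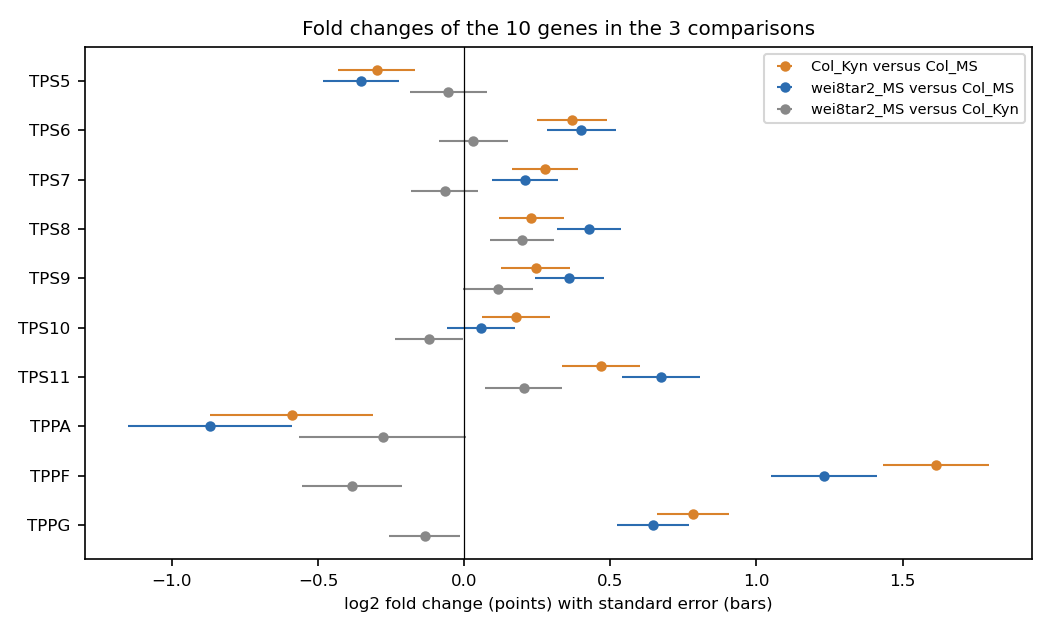
Log2 fold changes of the 10 genes (points) with standard errors (bars) in Col_Kyn versus Col_MS, wei8tar2_MS versus Col_MS and wei8tar2_MS versus Col_Kyn. TPPF lies farthest to the right in the comparisons with Col_MS, at 1.61 and 1.23, TPS5 and TPPA lie left of 0, and the direct comparison stays between -0.38 and 0.20.

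The class II genes share a gene structure of 3 coding exons and proteins of 851 to 867 residues, from translated RefSeq coding sequences. Identity over aligned positions ran from 58.4% to 84.6% in their 21 pairs, and from 36.2% to 39.7% against TPS1. TPS8 and TPS9, at 84.6%, were also the pair of the 10 genes with the most similar profile over the 6 libraries. Their centred log2 CPM differed by a root mean square (RMS) of 0.0584. TPS10, with 72.8% identity to TPS9 and 72.1% to TPS8, differed from them by an RMS of 0.179 and 0.186. TPS5 and TPS6, at 71.7% identity, had log2 fold changes of opposite sign in both comparisons with Col_MS and an RMS of 0.369. TPPF and TPPG, at 83.2%, differed by 0.356, though both were higher in both comparisons with Col_MS. The measure takes in the size of variation, an RMS about the mean of 0.682 for TPPF and 0.347 for TPPG. TPPA, with 66.1% identity to TPPF and 63.3% to TPPG, differed from them by 1.02 and 0.713.

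For each of the 10 genes, the genes with the most similar centred log2 CPM over the 6 libraries were sought among 16091 genes with a mean log2 CPM of at least 2. The nearest to TPS11 was KINBETA1 (named AKINBETA1 in RefSeq), a beta subunit of SnRK1, at an RMS of 0.0336. KINBETA1 stood at 30.2 and 34.2 CPM for Col_MS, then 43.8 and 48.7 for Col_Kyn, and 56.0 and 45.6 for wei8tar2_MS. Like TPS11, it was lowest in both Col_MS libraries and highest in wei8tar2_MS replicate 1. AT5G61590, at 0.0427, and AAE5, at 0.0543, came next. The profile of TPS9 was closest to those of AT3G56360 (0.0228), MCCB (0.0326), a subunit of the leucine-degrading methylcrotonyl-CoA carboxylase, and PDLP6 (0.0336). TPS8 had NFD4 (0.0322), AT5G41560 (0.0348) and AT5G05960 (0.0385) as its nearest genes.

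Distances grow with a gene's own variation, and TPPF varied most among the 10 genes, by an RMS of 0.682 about its mean, against 0.347 for TPPG and 0.299 for TPS11. BGAL2, a beta-galactosidase, was nearest to TPPF at an RMS of 0.155, before PP2-A13 (0.198) and THAS1 (0.213), the thalianol synthase. TPPG lay nearest to FLA5 (0.0914), a fasciclin-like arabinogalactan protein, AT5G43870 (0.100) and MGD2 (0.101), a galactolipid synthase. Around TPPA were AT1G77200 (0.0563), PFK3 (0.0611), a phosphofructokinase, and AT4G30990 (0.0672). TPS5 was closest to NFD3 (0.0249), PMM (0.0318), the phosphomannomutase, and AT2G01440 (0.0328). TPS6 had AT4G27745 (0.0222), AT5G25265 (0.0230) and AT5G03460 (0.0260). For TPS7 they were AT2G15695 (0.0155), AT1G04970 (0.0170) and AVA-P2 (0.0199), a proton pump subunit, and for TPS10 they were QSOX2 (0.0120), SAUL1 (0.0171) and EXO70A1 (0.0188). TPS7 and TPS10 varied least among the 10 genes, by an RMS of 0.132 and 0.0987 about their means, so small distances there say little. By Pearson correlation over the 6 libraries, KINBETA1 matched TPS11 at 0.994. The nearest genes of TPS6, TPS7 and TPS10 matched as closely, at 0.994, 0.995 and 0.995. A nearest gene among 16091 is picked for being close, so KINBETA1 does not stand out among these matches.

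Of the 12 other trehalose pathway genes, 8 passed the filter. None was called by edgeR in either comparison with Col_MS, beside 0.366% and 1.08% of all genes. In Col_Kyn 1 of the 8 had an unadjusted p under 0.05, beside 17% of all genes, and DESeq2 called 0, beside 3.4%. In wei8tar2_MS 3 had one, beside 20.6%, and DESeq2 called 1, in the higher direction, beside 5.93% called in either direction. Their median log2 fold changes were -0.15 and -0.08. TPPH had the largest estimates of these, from 2.74 ± 1.25 CPM (SD, n = 2) in Col_MS to 4.86 ± 1.299 in Col_Kyn and 6.72 ± 0.366 in wei8tar2_MS. Its log2 fold changes were 0.81 ± 0.33 (edgeR adjusted p = 0.281) and 1.29 ± 0.33 (adjusted p = 0.0910). TPPI stood at 4.86, 4.14 and 3.29 CPM and TPPB, which is known for a role in leaf size, at 8.17, 6.43 and 7.67 CPM in Col_MS, Col_Kyn and wei8tar2_MS.

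TPS1 and TRE1 were added for their place in the pathway, with their values known. TPS1 had 12.97 ± 2.25 CPM in Col_MS, 11.8 ± 1.32 in Col_Kyn and 11.2 ± 0.997 in wei8tar2_MS, with log2 fold changes of -0.14 ± 0.17 (edgeR adjusted p = 0.721) and -0.21 ± 0.17 (adjusted p = 0.532). TRE1, the trehalase, had log2 fold changes of 0.11 ± 0.48 and 0.20 ± 0.48, with an SE too wide to place it. TPS3 and TPS4 were without a read in the 6 libraries, a count that leaves room for 0.0943 to 0.165 CPM, and TPS2 and TPPC had at most 1 read in a library.

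Around this pathway, 4 more lists were counted: SnRK1 subunits and upstream kinases, C and S1 bZIP factors, genes induced by starvation or darkness, and genes of sucrose synthesis, cleavage and transport. They were written with earlier results of these data known and are no independent evidence of a direction. Of 9 SnRK1 genes tested, edgeR called none in either comparison with Col_MS, beside 0.366% and 1.08% of all genes. In Col_Kyn 3 had an unadjusted p under 0.05, beside 17% of all genes, and DESeq2 called 0, beside 3.4%. In wei8tar2_MS 2 had one, beside 20.6%, and DESeq2 called 2, beside 5.93%. KINBETA1 had log2 fold changes of 0.52 ± 0.13 (edgeR adjusted p = 0.143) and 0.66 ± 0.13 (adjusted p = 0.0693). KING1, a gamma-type subunit, had 0.33 ± 0.12 and 0.41 ± 0.12, and KIN11, a catalytic subunit, had 0.28 ± 0.11 and 0.19 ± 0.11. The list medians were 0.05 and 0.08.

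Of 9 bZIP genes tested, edgeR also called none, beside 0.366% and 1.08% of all genes. An unadjusted p under 0.05 was found for 3 in each comparison with Col_MS, beside 17% and 20.6% of all genes. DESeq2 called 1 in Col_Kyn and 2 in wei8tar2_MS, beside 3.4% and 5.93%. bZIP63, a factor that SnRK1 is known to phosphorylate, stood at 9.24 and 11.1 CPM for Col_MS, against 19.04 and 14.4 for Col_Kyn and 18.0 and 15.6 for wei8tar2_MS. Its Col_MS libraries were the lowest, and its log2 fold change was 0.72 ± 0.18 in both comparisons (edgeR adjusted p = 0.136 and 0.0873). bZIP1, a starvation-responsive factor, had 0.32 ± 0.17 and 0.67 ± 0.17, and bZIP11, whose translation is known to be repressed by sucrose, had -0.23 ± 0.15 and -0.33 ± 0.15. The list medians were 0.29 and 0.12.

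Among 20 genes of the starvation and dark list, 2 rose in Col_Kyn and 1 rose in wei8tar2_MS by edgeR, and none fell, beside 0.145% and 0.563% of all genes called higher. DESeq2 called 7 and 10, all higher, beside 1.93% and 3.06% of all genes called higher. A log2 fold change above 0 was found for 18 of the 20 in each comparison, beside 47.1% and 46.8% of all genes, with medians of 0.66 and 0.80 beside -0.02 over all genes in each. ERD5, the proline dehydrogenase, had 77.7 and 96.2 CPM in Col_MS against 315 and 227 in Col_Kyn, and rose by 1.64 ± 0.18 (log2; edgeR adjusted p = 0.0264). In wei8tar2_MS its estimate was 0.93 ± 0.18 (adjusted p = 0.0659). DIN10, a raffinose synthase family gene, had 303 and 327 CPM in Col_MS against 759 and 592 in Col_Kyn, and rose by 1.101 ± 0.16 (edgeR adjusted p = 0.0488), with an estimate of 0.66 ± 0.16 (adjusted p = 0.0838) in wei8tar2_MS. ASN1, the dark-induced asparagine synthetase, had 50.1 and 65.7 CPM in Col_MS against 199 and 191 in wei8tar2_MS, and rose by 1.75 ± 0.23 (edgeR adjusted p = 0.0360). In Col_Kyn its estimate was 1.399 ± 0.22 (edgeR adjusted p = 0.0656, 0.0251 with the replicate block and 0.182 in the fit of the 2 groups alone). With 1 library left out, that estimate ran from 1.04 (without Col_Kyn replicate 2) to 1.69 (without Col_Kyn replicate 1). Between wei8tar2_MS and Col_Kyn the log2 fold changes of ERD5, DIN10 and ASN1 were -0.71 ± 0.18, -0.45 ± 0.16 and 0.35 ± 0.22, and edgeR called none of them. BGLU30 and DRM2 had larger or similar estimates without a call, of 1.90 ± 0.39 (edgeR adjusted p = 0.100) and 1.08 ± 0.46 (adjusted p = 0.295) in Col_Kyn and 1.31 ± 0.39 (0.126) and 1.68 ± 0.47 (0.111) in wei8tar2_MS. DIN11 had -1.38 ± 0.70 in Col_Kyn and -0.02 ± 0.64 in wei8tar2_MS, with Col_MS at 11.4 and 1.93 CPM.

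In fits with 1 library left out, the fold changes of these 3 genes kept their direction, and calls ended in several of the fits. ERD5 in Col_Kyn ran from 1.39 to 1.86 (log2) and DIN10 from 0.91 to 1.27. Neither was called by edgeR without Col_MS replicate 1 (adjusted p = 0.0758 and 0.135), Col_Kyn replicate 1 (0.0524 and 0.0985), Col_Kyn replicate 2 (0.0868 and 0.0979) or either wei8tar2_MS library (0.110 for ERD5, and 0.155 and 0.156 for DIN10). Leaving out a wei8tar2_MS library, which is outside that comparison, left the fold changes at 1.64 and 1.101. The fit of Col_Kyn and Col_MS alone did not call ERD5 or DIN10 either (edgeR adjusted p = 0.104 and 0.15). ASN1 was called in the fit of wei8tar2_MS and Col_MS alone (edgeR adjusted p = 0.0201). ASN1 in wei8tar2_MS ran from 1.57 to 1.99 and was not called without Col_MS replicate 1 (edgeR adjusted p = 0.0828), wei8tar2_MS replicate 1 (0.348) or wei8tar2_MS replicate 2 (0.312).

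Of 21 sucrose genes, edgeR called 0 in Col_Kyn and 1 in wei8tar2_MS, beside 0.366% and 1.08% of all genes. An unadjusted p under 0.05 was found for 6 and 7, beside 17% and 20.6% of all genes. DESeq2 called 1 in Col_Kyn, and 1 higher and 1 lower in wei8tar2_MS, beside 3.4% and 5.93%. CINV1, a cytosolic invertase, stood at 179 and 204 CPM for Col_MS, then 289.9 and 293 for Col_Kyn, and 329 and 305 for wei8tar2_MS, and rose in wei8tar2_MS by 0.73 ± 0.12 (log2; edgeR adjusted p = 0.0461). That call ended without Col_MS replicate 1 (adjusted p = 0.0953), Col_Kyn replicate 2 (0.0525), wei8tar2_MS replicate 1 (0.534) or wei8tar2_MS replicate 2 (0.325), while the log2 fold change in these fits was 0.64, 0.74, 0.67 and 0.78. In Col_Kyn CINV1 had 0.61 (edgeR adjusted p = 0.0940). The sucrose synthase genes SUS4 and SUS1 were unequal between the Col_MS libraries, at 201 and 44.0 CPM and at 154 and 48.0 CPM. SUS4 had log2 fold changes of -1.42 ± 0.67 (edgeR adjusted p = 0.338) and -3.55 ± 0.74 (adjusted p = 0.0698), SPSA2, a sucrose-phosphate synthase gene, had 0.49 ± 0.17 and 0.51 ± 0.17, and the list medians were -0.03 and -0.04.

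**Figure D5:**
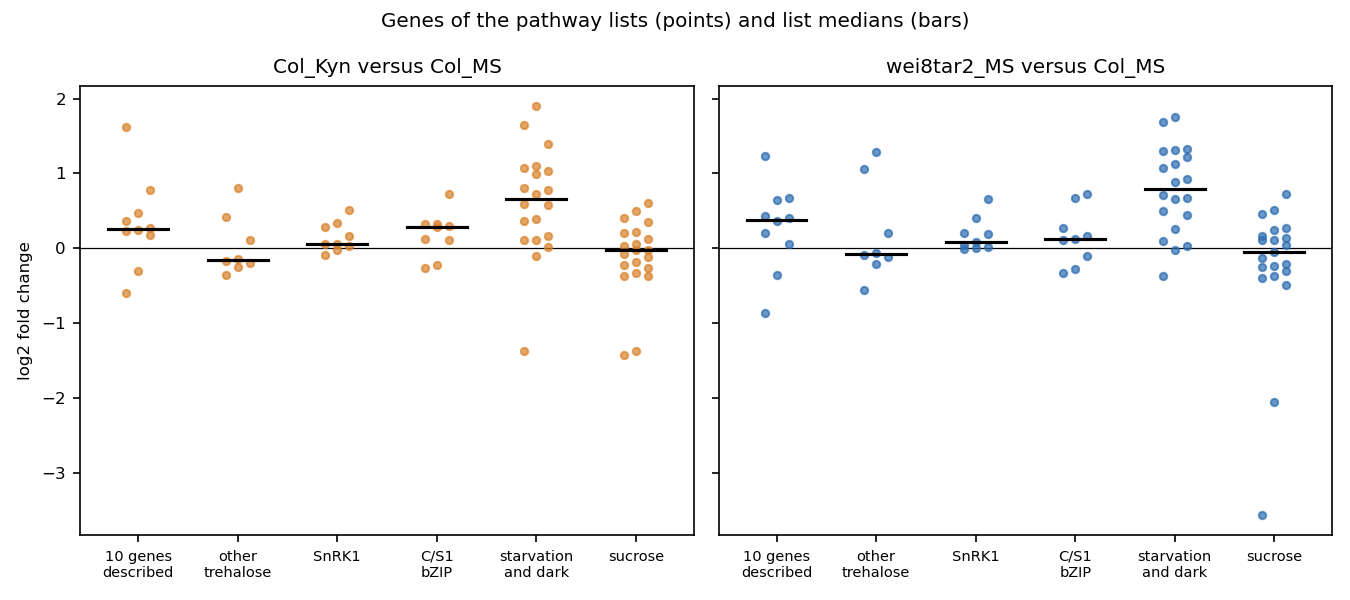
Log2 fold changes of single genes (points) and list medians (bars) for the 10 genes described and the 5 lists around them, in Col_Kyn versus Col_MS (left) and wei8tar2_MS versus Col_MS (right). The starvation and dark list has medians of 0.66 and 0.80, the 10 genes have 0.26 and 0.38, and all genes have -0.02 in each comparison.

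Between wei8tar2_MS and Col_Kyn, edgeR called 0 genes of any of the 5 lists, beside 0.0281% of all genes. An unadjusted p under 0.05 was found for 4 of 20 starvation and dark genes and 3 of 21 sucrose genes, beside 4.32% of all genes. It was found for 0 genes of each other list. DESeq2 called 1 starvation and dark gene, beside 0.233% of all genes.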

How the data were processed

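Messenger RNA was sequenced in 6 libraries, 2 in each of 3 groups taken from the labels. The submitters' processing notes name TopHat 1.3.0 and the build TAIR10. How reads were assigned to genes, with which annotation and with or without strand, is not given in the sources used here. The authors deposited, per the file headers, a raw count of uniquely mapped reads per gene and an RPKM value for it. RPKM recomputed from the deposited counts, listed lengths and totals differed by a relative 8.48e-14 at most. RPKM served for this check alone, because the listed lengths of the 10 genes differ from their exon lengths. Those of TPS6 and TPS10 are shorter and the others longer. Those of TPS9, TPPF and TPPG nearly equal the whole span of the gene, introns included. Genes not listed in a table were taken as 0, where 3 reads correspond to 0.0943 to 0.165 CPM. These floors cover counting error only, whereas the SEs of the fold changes take in the spread between libraries.

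The counts were tested with edgeR 4.0.16 (R 4.3.3) with TMM scaling, the filterByExpr filter and a quasi-likelihood test. All 6 libraries entered it, with a coefficient for each group. Calls were made at a Benjamini-Hochberg adjusted p under 0.05 over 21326 genes, and the script was tested on simulated data. CPM values are TMM-scaled, and levels per kilobase use RefSeq exon lengths of TAIR10.1, matched by locus name for 25911 of 26185 genes. Coordinates, promoters and coding sequences are those of TAIR10.1, and proteins were aligned with Biopython 1.88. The promoter of 1 of the 10 genes is not reported here. Alternatives were DESeq2 1.42.0, median-ratio factors, no filter, a replicate block, the groups of a comparison alone, removal of identical rows, and each library left out in turn. The replicate numbers were not taken as pairs, because no label gives them a shared day. Deviations from group means correlated between equal replicate numbers at 0.202 for Col_MS with Col_Kyn. They did so at 0.0220 for Col_MS with wei8tar2_MS and at -0.0390 for Col_Kyn with wei8tar2_MS. These values do not settle whether repeats of equal number were handled together.

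The 10 genes and all lists were chosen with earlier results of these data known. Named are the 10 genes, every list gene called, at most 3 others per list with the largest fold change whose mean log2 CPM reached 2, and the 3 nearest profiles of each of the 10. TPS1 and TRE1 were added to these.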

Additional observations from a re-analysis of the deposited data

How the results depend on the processing

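The log2 fold changes of the 10 genes kept their sign and moved by at most 0.05 under DESeq2, median-ratio factors, no filter, the replicate block, the groups of a comparison alone and removal of identical rows. Of the values with 1 library left out, those of TPS5 (0.14) and TPS6 (-0.01) turned sign in wei8tar2_MS versus Col_Kyn without Col_Kyn replicate 1. Counts of calls depended on the settings. In Col_Kyn versus Col_MS, 78 genes and 1 of the 10 were called by edgeR, against 735 and 2 by DESeq2, 409 and 2 with no filter, 130 and 1 with the replicate block, 0 and 0 in the fit of the 2 groups alone, and 0 to 1080 and 0 to 4 with 1 library left out. In wei8tar2_MS versus Col_MS, 230 genes and 1 of the 10 were called, against 1313 and 4 by DESeq2, 1113 and 3 with no filter, 367 and 1 with the replicate block, 352 and 1 in the fit of the 2 groups alone, and 4 to 1719 and 0 to 5 with 1 library left out. In wei8tar2_MS versus Col_Kyn, 6 genes were called, against 55 by DESeq2, 26 with no filter, 12 with the replicate block, 11 in the fit of the 2 groups alone, and 4 to 17 with 1 library left out, and 0 of the 10 under each of these. The counts were highest without Col_MS replicate 2 in both comparisons with Col_MS, when TPPA and TPS6 were among the genes called. The replicate block ended no call on the 10 genes, and the cause of the other changes was not tested. With 2 libraries a group and 3 residual degrees of freedom, a difference such as that of TPS10 in wei8tar2_MS versus Col_MS, 0.06 ± 0.12 (SE), cannot be placed beyond the replicate spread, and the level of TPPF rests on 72 to 233 reads a library.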
